A study of Mus musculus with 9 samples.

Results

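Matricellular proteins are secreted proteins that sit in the extracellular matrix, bind collagen and cell receptors and change how cells attach, without being a main building block of the matrix themselves. The members described here are 10 genes given as a list of symbols: Postn, Tnc, the thrombospondin genes Thbs1, Thbs2, Thbs3 and Thbs4, the SPARC family genes Sparc, Sparcl1 and Smoc2, and Cthrc1. They were matched by symbol to Ensembl gene IDs in GENCODE release M21 (GRCm38) and make up 10 of the 38293 genes in the table of read counts. All 10 matched and all 10 passed the filter on low counts that left 14124 genes for testing. Some of these genes are low in resting adult heart muscle, while Sparc and Sparcl1 are not, and most are known as genes of healing wounds and scars. Periostin and Cthrc1 are products of activated fibroblasts, and tenascin C appears at the edge of fresh injury. Thrombospondins bind collagen and growth factors, and Thbs1 binds the receptors Cd36 and Cd47.

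Total RNA of the left ventricle was sequenced in male C57BL/6 mice aged 8 weeks, with 3 mice at 14 days after ischemia-reperfusion (I/R), 3 mice at 1 day after I/R and 3 sham-operated mice. For I/R the LAD artery was tied for 1 hour and then released. The labels name the infarcted region of the left ventricle as the tissue of all groups, sham included, do not give the time after sham surgery, and name no allele or drug in any group. Mice 4, 5 and 6 are the 1-day mice and mice 1, 2 and 3 the sham mice. The 14-day libraries share 1 column name, which holds the number of 1 mouse only, though the sample titles name 3 mice. These libraries are written A, B and C, letters that identify no mouse.

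Total counts ran from 20215781 to 36816818 per library, or from 7217019 to 15969149 without ribosomal RNA genes, and CPM is the count divided by a library's size in units of 1e6 after TMM scaling (trimmed mean of M values). Mitochondrially encoded genes took between 65.0% and 68.8% of counts at 14 days, 52.0% and 63.3% at 1 day, and 65.0% and 71.8% in sham. The TMM factors were between 0.863 and 1.04 at 14 days, 1.07 and 1.46 at 1 day, and 0.774 and 0.948 in sham. With mitochondrially encoded genes left out of the scaling no member gained or lost a call. Of 6 cardiomyocyte markers 5 fell at 1 day against sham, where 24.8% of all genes tested were called lower. None passed the test at 14 days against sham, where 8.75% of all genes were called higher and 5.64% lower. The 6 markers summed to between 13352 and 18267 CPM at 14 days, between 7023 and 13167 CPM at 1 day and between 18758 and 20948 CPM in sham. Of 4 atrial markers, Myl7, Sln and Myl4 had at most 0.181, 0.0409 and 1.21 CPM in any library, and Sln was at 0 in every library but C. The other, Nppa, which stressed ventricles also express, had between 246.0 and 469.9 CPM at 14 days, 373.9 and 481.0 CPM at 1 day, and 17.1 and 42.9 CPM in sham, and it rose at 14 days (log2 fold 3.58, SE 0.35) and at 1 day (3.85, SE 0.35). Of the exonic bases of Nppa 61.5% overlap Gm13054 on the other strand, so its counts are uncertain. Not every group formed a tight set of libraries. Mouse 6 lay at 37.2 on the first principal component of log2 CPM, against 78.0 and 78.7 for mice 4 and 5. The sham mice lay close together on that component, at -35.8, -38.2 and -40.9. Sham mouse 1 had 932.4 CPM over 8 genes of fibrillar collagen, fibronectin and collagen maturation, against 451.9 and 488.5 CPM in sham mice 2 and 3. In bulk tissue a change in the number of cells of a type and a change in RNA per cell cannot be told apart.

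The promoter sequences of 4 members are shown because these genes had different time courses: Tnc was highest at 1 day, Postn and Thbs4 were called above sham at both times, and Thbs2 was called above sham at 14 days and not at 1 day. Each is the 250 bases before a RefSeq transcription start (GRCm38.p6), written 5′ to 3′ on the gene's strand, at chr4:64047016-64047265 (minus strand) for Tnc, chr3:54360857-54361106 (plus strand) for Postn, chr13:92794819-92795068 (minus strand) for Thbs4 and chr17:14694263-14694512 (minus strand) for Thbs2. Capitals mark matches to the motifs searched on both strands.
Tnc: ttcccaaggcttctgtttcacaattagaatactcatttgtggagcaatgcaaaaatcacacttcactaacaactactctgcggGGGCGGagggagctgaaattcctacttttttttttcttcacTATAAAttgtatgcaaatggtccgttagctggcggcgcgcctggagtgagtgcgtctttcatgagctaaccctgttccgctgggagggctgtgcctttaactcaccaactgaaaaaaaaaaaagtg
Postn: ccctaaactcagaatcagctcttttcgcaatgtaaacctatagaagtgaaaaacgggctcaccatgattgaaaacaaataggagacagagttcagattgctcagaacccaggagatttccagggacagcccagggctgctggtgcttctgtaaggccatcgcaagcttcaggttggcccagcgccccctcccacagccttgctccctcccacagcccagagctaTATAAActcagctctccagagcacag
Thbs4: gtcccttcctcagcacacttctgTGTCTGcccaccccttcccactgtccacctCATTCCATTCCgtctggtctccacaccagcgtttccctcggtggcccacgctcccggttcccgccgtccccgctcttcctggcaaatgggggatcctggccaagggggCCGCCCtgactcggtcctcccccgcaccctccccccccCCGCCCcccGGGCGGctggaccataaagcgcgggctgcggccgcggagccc
Thbs2: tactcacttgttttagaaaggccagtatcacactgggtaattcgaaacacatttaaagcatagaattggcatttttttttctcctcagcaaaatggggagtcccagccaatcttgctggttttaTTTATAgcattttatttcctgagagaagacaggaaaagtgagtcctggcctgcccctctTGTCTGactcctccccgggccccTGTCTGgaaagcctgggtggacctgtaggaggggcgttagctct

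The 7 motifs were searched in 32536 distinct promoter windows of this length as well. The AP-1 motif was written TGANTCA and was present in 6.73% of windows. The TEAD motif was written GGAATG and was present in 12.6%. The SMAD motif was written CAGACA and was present in 17%. The RUNX motif was written TGTGGT and was present in 14%. The GC box was written GGGCGG and was present in 33%. The TATA box was written with the letters TATAAA and was present in 12.3%, and the CArG box, by its name alone, in 1.48%. The Postn window held 1 match, TATAAA at 26 bases before the start. In the Tnc window TATAAA lay 126 bases and GGGCGG 167 bases before the start. The Thbs4 window held 3 GC box matches, the nearest 42 bases before the start, 2 TEAD matches that overlap each other and 1 SMAD match, all but 1 GC box on the reverse strand. The Thbs2 window held SMAD matches on the reverse strand at 44 and 67 bases and a reverse TATA match at 126 bases. No AP-1, RUNX or CArG match lay in these windows, which says only that those letters were not in them. A second RefSeq start of Tnc, at 64046936, has a window that overlaps the one shown and holds an SMAD match on the reverse strand 71 bases before that start. A second window of Postn, before a start at 54359267, held no match. Promoters of Sparc and Thbs3 were also searched. The promoter set used held none for Thbs1, Sparcl1, Cthrc1 and Smoc2, so these were not searched.

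At 14 days all 10 genes were higher than in sham, while at 1 day 5 were higher, 2 were lower and 3 did not pass the test. Against sham, 10 of 10 members rose at 14 days, where 8.75% of the 14124 genes tested were called higher and 5.64% lower. Calls are those of the quasi-likelihood test in edgeR at an adjusted p below 0.05. In place of 10 members, 7 were called at 14 days against sham without sham mouse 2 or sham mouse 3. It was 8 without library B or library C, with total count only and with no filter on low counts. At 1 day 5 rose, where 29.4% of genes were called higher, and 2 fell, where 24.8% were called lower. Between both times 8 members were higher at 14 days than at 1 day, where 25.1% of genes were called higher, and 1 was lower, where 26.8% were called lower. The median log2 fold of the members was 1.94 at 14 days against sham, 1.07 at 1 day against sham and 1.51 at 14 days against 1 day, beside 0.014, 0.045 and 0.005 over all genes tested. Both comparisons against sham share the sham libraries. The members were chosen with results of these data known, so their counts are a description.

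With libraries scaled by total count only, the median log2 fold over all genes shifted by 0.094 at 14 days against sham, by 0.48 at 1 day against sham and by -0.39 at 14 days against 1 day. It called 720 genes higher and 112 lower at 14 days against sham, in place of 1236 and 797. At 1 day against sham it called 6860 higher and 1057 lower, in place of 4153 and 3496. At 14 days against 1 day it called 1066 higher and 5469 lower, in place of 3547 and 3788. No member changed sign under it, and the calls it ended are named with each gene.

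**Figure D1:**
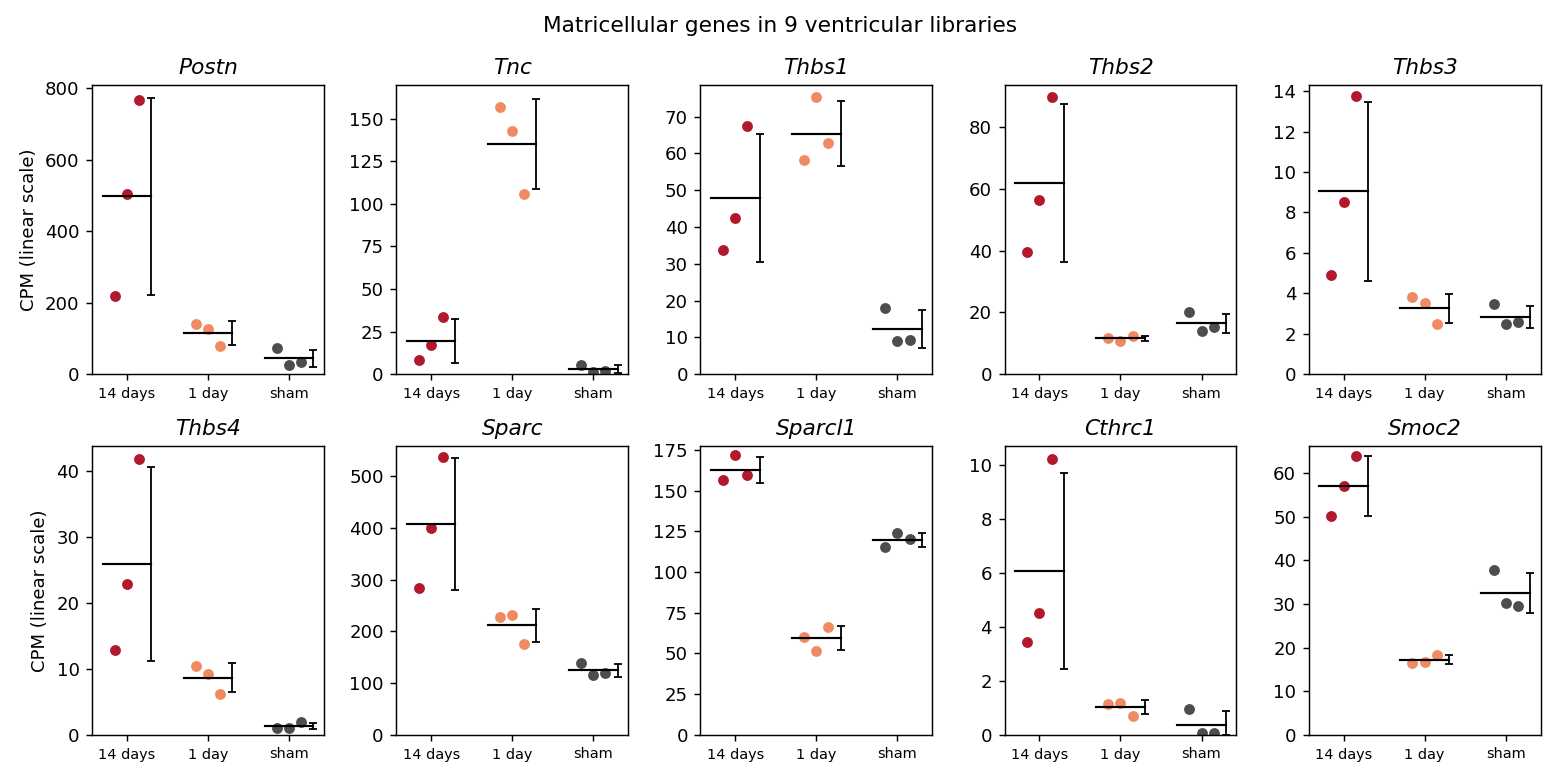
CPM of each member (linear vertical axis from 0, a separate range per gene) in 3 libraries per group, with the 14-day, 1-day and sham groups from left to right. Points are libraries, the line is the mean and the bar the SD, cut at 0 for Cthrc1 in sham, and Tnc and Thbs1 have their highest mean at 1 day while the other 8 genes have theirs at 14 days.

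Postn encodes periostin, a protein that binds collagen and integrins and is the usual marker of activated cardiac fibroblasts. The gene lies at chromosome 3, 54361109 to 54391037 (ENSMUSG00000027750). Postn had 219.4, 503.3 and 767.8 CPM in libraries A, B and C at 14 days, 139.6, 127.2 and 78.4 CPM in mice 4, 5 and 6 at 1 day, and 72.3, 26.8 and 33.1 CPM in sham mice 1, 2 and 3. The groups did not overlap, though mouse 6 and sham mouse 1 were close. At 14 days Postn rose 11.3-fold over sham (log2 fold 3.49, SE 0.54, adjusted p = 0.00588). At 1 day it rose 2.61-fold over sham (log2 fold 1.39, SE 0.50, adjusted p = 0.0411), a call close to the threshold. Of 17 alternatives 8 ended it: without sham mouse 2 (1.12, adjusted p = 0.118), sham mouse 3 (1.21, 0.108), mouse 4 (1.19, 0.0853), mouse 5 (1.31, 0.0843), mouse 6 (1.59, 0.0792) or library B (1.38, 0.0516), with total count only (1.87, 0.0546) and with no filter on low counts (1.40, 0.140), log2 fold first and adjusted p second. Postn was also higher at 14 days than at 1 day (log2 fold 2.11, SE 0.50, adjusted p = 0.00731), which did not pass without mouse 6 (1.90, adjusted p = 0.0578) or with total count only (1.74, adjusted p = 0.0771).

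Cthrc1 encodes a small secreted glycoprotein with a collagen-like stretch, made by activated fibroblasts of injured vessels and infarcts. Its position is chromosome 15, 39076932 to 39087121. Cthrc1 had 3.46, 4.51 and 10.2 CPM at 14 days (A, B, C), 1.15, 1.19 and 0.717 CPM at 1 day (mice 4, 5, 6) and 0.963, 0.0674 and 0.0639 CPM in sham (mice 1, 2, 3). Sham mouse 1 lay among the 1-day libraries, and sham mice 2 and 3 were near 0, with 2 and 1 counts beside 23 counts in sham mouse 1. At 14 days Cthrc1 rose over sham (log2 fold 3.98, SE 0.72, adjusted p = 0.0100) and over 1 day (log2 fold 2.52, SE 0.59, adjusted p = 0.00639). The second call did not pass with total count only (2.17, adjusted p = 0.0509). At 1 day it was not called against sham (log2 fold 1.46, SE 0.85, 95% interval -0.46 to 3.37, adjusted p = 0.175). Nor was it called without sham mouse 2 (log2 fold 0.82, adjusted p = 0.440) or by limma-voom (2.37, adjusted p = 0.0811). Only 1 of 17 alternatives called it, the fit without sham mouse 1 (log2 fold 3.88, adjusted p = 0.0113). That fit had 97 counts over the 1-day libraries against 3 counts over sham mice 2 and 3. That ratio was 16.0 per scaled library size, with a 95% exact counting interval of 5.31 to 78.9. Without sham mouse 1 the log2 fold at 14 days over sham was 6.41 (adjusted p = 0.00890). It was 3.35 without sham mouse 2 (adjusted p = 0.0454), 3.38 without library C (adjusted p = 0.0208) and 4.71 by limma-voom (adjusted p = 0.0146). Counting intervals cover counting error only.

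Tnc encodes tenascin C, a large hexameric glycoprotein of embryonic tissue that returns at wound edges. Its position is chromosome 4, 63959785 to 64047015 on the minus strand, and 2.26% of its exonic bases overlap 8030451A03Rik on the other strand. Tnc had 8.31, 16.9 and 33.7 CPM at 14 days, 157.2, 143.0 and 106.0 CPM at 1 day, and 5.49, 1.45 and 1.73 CPM in sham. The 1-day libraries stood above all others, and the groups did not overlap. At 1 day Tnc rose 46.4-fold over sham (log2 fold 5.54, SE 0.64, adjusted p = 2.05e-04), which ranks 22 of 14124 genes by size of the log2 fold. Without sham mouse 1 the rise was 86.3-fold (log2 fold 6.43, adjusted p = 3.92e-04). At 14 days Tnc was 0.144 times the 1-day level (log2 fold -2.79, SE 0.53, adjusted p = 0.00255), and 0.0948 times without library C (log2 fold -3.40, adjusted p = 0.00309). Its level at 14 days was called above sham (log2 fold 2.74, SE 0.61, adjusted p = 0.0205), a call that many alternatives ended.

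Of 17 alternatives 8 ended the 14-day call of Tnc against sham, with the log2 fold between 2.10 and 3.64, the highest without sham mouse 1 and the lowest without library C. These were the fits without sham mouse 2 (2.37, adjusted p = 0.0742), sham mouse 3 (2.53, 0.0549), mouse 6 (2.74, 0.0564), library B (2.84, 0.0524) or library C (2.10, 0.0847), the fit of these groups only (2.74, 0.0636), total count only (2.87, 0.113) and no filter on low counts (2.74, 0.0775). In counts of the same library, the log2 ratio of Tnc over Postn was -4.71 ± 0.196 at 14 days, 0.258 ± 0.153 at 1 day and -4.05 ± 0.290 in sham (SD, n = 3 per group). Tnc and Postn counts were thus close to equal only at 1 day. All 14-day values lay below sham and all 1-day values above it. Each of the 3 comparisons had a two-sided exact permutation p of 0.1, the smallest that 3 against 3 libraries can give.

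**Figure D2:**
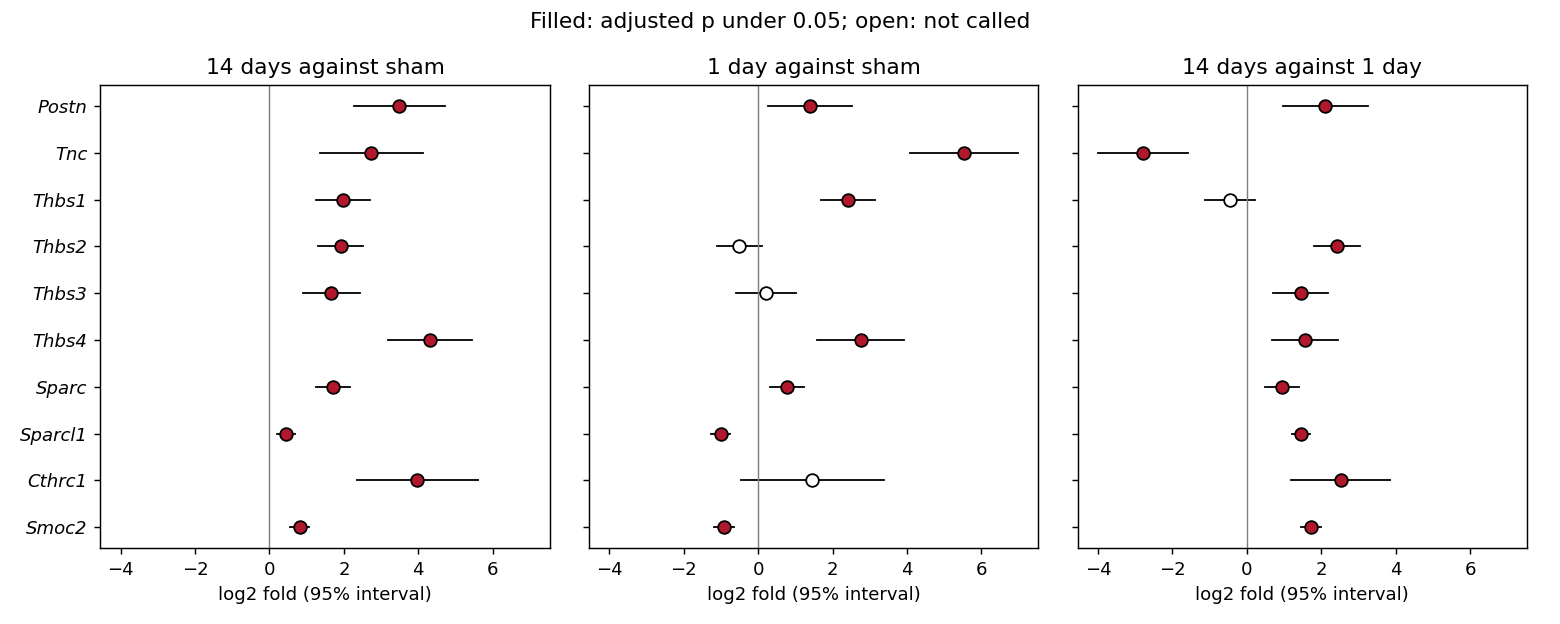
Log2 folds of each member in the 3 comparisons, with 95% intervals from the edgeR fit as horizontal lines. Filled points passed an adjusted p of 0.05, and all 10 points are filled at 14 days against sham, 7 at 1 day against sham and 9 at 14 days against 1 day.

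Thrombospondins fall into a trimeric group, Thbs1 and Thbs2, and a pentameric group that includes Thbs3 and Thbs4. Thbs1 binds Cd47 and Cd36 and can release active TGF-beta from its latent complex. Thbs1 lies at chromosome 2, 118111876 to 118127133, where 3.42% of its exonic bases overlap Gm29233 on the other strand. Thbs1 had 33.9, 42.4 and 67.4 CPM at 14 days, 58.2, 75.2 and 62.8 CPM at 1 day, and 18.1, 9.13 and 9.33 CPM in sham. Every I/R library exceeded every sham library, while the 14-day and 1-day libraries overlapped. Thbs1 rose 3.91-fold at 14 days (log2 fold 1.97, SE 0.32, adjusted p = 0.00676) and 5.34-fold at 1 day (log2 fold 2.42, SE 0.32, adjusted p = 3.71e-04) over sham. Between 14 days and 1 day the log2 fold was -0.45 (SE 0.30, 95% interval -1.13 to 0.22, adjusted p = 0.233) and was not called. Without library C it was called (-0.76, adjusted p = 0.0482).

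Platelets store thrombospondin 1, so platelet markers were read beside it. The 5 genes Pf4, Ppbp, Itga2b, Gp9 and Gp1bb summed to between 4.47 and 9.16 CPM at 14 days, 9.63 and 13.4 CPM at 1 day, and 5.65 and 11.2 CPM in sham. Gp1bb was at 0 in mouse 5 and sham mouse 1, but 92.9% of its exonic bases are shared with Sept5 and Gm49601 on the same strand. Its counts are therefore uncertain. Of the 3 tested, Pf4 rose at 1 day over sham (log2 fold 0.85, SE 0.25), Ppbp was lower at 14 days than at 1 day (log2 fold -1.35, SE 0.42), and no other call was made. Of 4 neutrophil markers tested 4 rose at 1 day over sham, where 29.4% of all genes were called higher. The 5 listed summed to between 1.49 and 2.74 CPM at 14 days, 15.9 and 53.3 CPM at 1 day and 1.21 and 3.96 CPM in sham. The part of these cells in the Thbs1 result was not tested.

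Thbs2, like Thbs1, forms trimers and restrains vessel growth, and mouse hearts that lack it handle load and injury poorly. It lies at chromosome 17, 14665500 to 14694235. Thbs2 had 39.5, 56.5 and 89.7 CPM at 14 days, 11.6, 10.8 and 12.4 CPM at 1 day, and 20.01, 13.9 and 15.4 CPM in sham. The 1-day libraries lay below all sham libraries and the 14-day libraries above. Thbs2 rose 3.76-fold over sham at 14 days (log2 fold 1.91, SE 0.27, adjusted p = 0.00431) and was 5.33 times as high as at 1 day (log2 fold 2.42, SE 0.27, adjusted p = 1.49e-04). At 1 day against sham the log2 fold was -0.50 (SE 0.27, 95% interval -1.12 to 0.11, adjusted p = 0.148) and was not called. It was called lower without library A (-0.51, adjusted p = 0.0430), without library C (-0.54, adjusted p = 0.0172) and when the 14-day libraries were left out of the fit (-0.54, adjusted p = 0.00820), and with total count only it was -0.03.

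Thbs3 is a pentameric thrombospondin of developing cartilage that also has been studied in mouse heart muscle cells. It lies at chromosome 3, 89215180 to 89226837, and 6.59% of its exonic bases overlap Mtx1 on the other strand. Thbs3 had 4.92, 8.50 and 13.7 CPM at 14 days, 3.802, 3.50 and 2.46 CPM at 1 day, and 3.48, 2.49 and 2.56 CPM in sham. The 1-day and sham libraries overlapped, and all 14-day libraries were higher. Thbs3 rose at 14 days over sham (log2 fold 1.66, SE 0.35, adjusted p = 0.0139) and was higher than at 1 day (log2 fold 1.45, SE 0.33, adjusted p = 0.00493). The call against sham ended without sham mouse 2 (1.55, adjusted p = 0.0718), without sham mouse 3 (1.60, adjusted p = 0.0505) and with no filter on low counts (1.66, adjusted p = 0.0594). At 1 day it was not called (log2 fold 0.21, SE 0.36, 95% interval -0.60 to 1.02, adjusted p = 0.644).

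Thbs4 encodes a pentameric thrombospondin of tendon and stressed muscle, known in mouse heart to bind the endoplasmic reticulum stress sensor Atf6. Thbs4 lies at chromosome 13, 92751590 to 92794818. Thbs4 had 12.8, 22.9 and 41.8 CPM at 14 days, 10.5, 9.29 and 6.18 CPM at 1 day, and 1.09, 1.08 and 1.92 CPM in sham. All 3 groups were separate. It rose 19.8-fold over sham at 14 days (log2 fold 4.31, SE 0.50, adjusted p = 0.00302), which ranks 19 of 14124 genes by size of the log2 fold, and 6.73-fold at 1 day (log2 fold 2.75, SE 0.51, adjusted p = 0.00194). Thbs4 was also higher at 14 days than at 1 day (log2 fold 1.56, SE 0.39, adjusted p = 0.00907). That call ended without mouse 6 (1.38, adjusted p = 0.0609) and with total count only (1.201, adjusted p = 0.0758).

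The make-up of the 4 thrombospondins changed with time. Shares were taken of counts per kilobase of exon within a library, so they do not depend on scaling between libraries. Thbs1 took 30.7% ± 3.42 at 14 days, 68.4% ± 4.68 at 1 day and 36.5% ± 5.99 in sham (SD, n = 3 per group). Thbs2 took 33.8% ± 1.26 at 14 days, 10.6% ± 1.70 at 1 day and 44.2% ± 2.36 in sham. Thbs4 took 28.6% ± 4.08 at 14 days, 16.7% ± 3.99 at 1 day and 8.13% ± 3.64 in sham. Of these 4 genes Thbs1 thus led at 1 day, whereas Thbs1, Thbs2 and Thbs4 were close at 14 days. Comp, the fifth thrombospondin gene, is not a member and was left out of the shares. Its mean CPM per kilobase was 13.65 ± 7.79 at 14 days, beside 8.84 ± 3.65 for Thbs2, and 0.0362 at 1 day and 0.180 in sham. Thbs3 took 6.98% ± 0.585 at 14 days, 4.29% ± 0.837 at 1 day and 11.1% ± 0.754 in sham. The groups were separate in 11 of the 12 comparisons (two-sided exact permutation p = 0.1, the smallest 3 against 3 can give), and the Thbs1 share at 14 days overlapped sham (exact permutation p = 0.2). The log2 ratio of Thbs1 over Thbs2 counts was -0.351 ± 0.110 at 14 days, 2.49 ± 0.269 at 1 day and -0.490 ± 0.304 in sham (SD, n = 3 per group). It overlapped between 14 days and sham (exact permutation p = 0.5) and was higher in all 1-day libraries than in any other (p = 0.1 for each).

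The log2 ratio of Thbs4 over Thbs1 counts was -0.992 ± 0.368 at 14 days, -2.94 ± 0.436 at 1 day and -3.12 ± 0.884 in sham (SD, n = 3 per group). All 14-day libraries were above the others (exact permutation p = 0.1 against 1 day and against sham), and 1-day and sham libraries overlapped (exact permutation p = 0.9). The levels of the 14-day libraries differed more than their shares: library C had 3.26 times the Thbs4 CPM of library A, while the Thbs4 share was 24.1% in A and 32.2% in C.

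**Figure D3:**
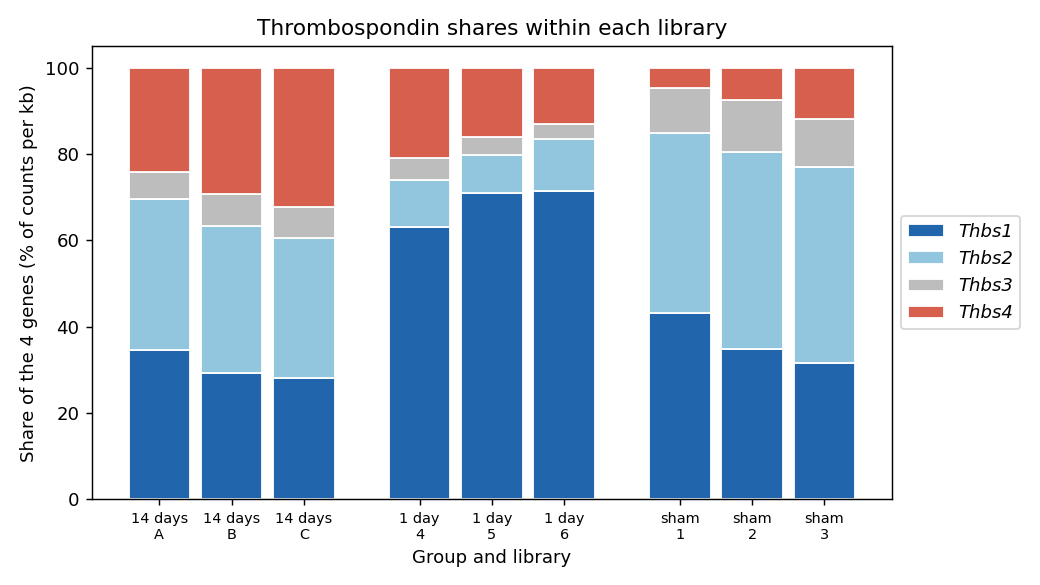
Share of each of Thbs1, Thbs2, Thbs3 and Thbs4 in their summed counts per kilobase of exon (stacked to 100%, Comp left out) in each library, with 14-day, 1-day and sham libraries from left to right. Thbs1 fills 63.0% to 71.3% of the 1-day bars and at most 43.2% of any other, and Thbs4 fills 24.1% to 32.2% of the 14-day bars against 4.805% to 12.02% in sham.

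Sparc, Sparcl1 and Smoc2 are related calcium-binding proteins. Sparc (osteonectin) binds collagen and is needed for its processing and deposition in mouse scars. Sparc lies at chromosome 11, 55394500 to 55423183. Sparc had 284.1, 401.0 and 538.2 CPM at 14 days, 227.7, 232.3 and 175.6 CPM at 1 day, and 139.1, 116.7 and 118.8 CPM in sham. The groups were separate and stepped upward in the order sham, 1 day, 14 days. Sparc rose 3.26-fold at 14 days (log2 fold 1.71, SE 0.21, adjusted p = 0.00238) and 1.70-fold at 1 day (log2 fold 0.76, SE 0.21, adjusted p = 0.00936) over sham. It was higher at 14 days than at 1 day (log2 fold 0.94, SE 0.21, adjusted p = 0.00319), a call that ended with total count only (0.58, adjusted p = 0.0918).

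Sparcl1 (hevin) is the nearest relative of Sparc and is abundant in vessels and resting stroma. Sparcl1 lies at chromosome 5, 104079111 to 104113733. Sparcl1 had 156.7, 171.6 and 159.4 CPM at 14 days, 60.0, 51.6 and 66.5 CPM at 1 day, and 115.1, 123.8 and 120.5 CPM in sham. Its libraries were tight within each group and the groups were separate. At 1 day Sparcl1 fell to 0.496 times the sham level (log2 fold -1.01, SE 0.11, adjusted p = 6.48e-05). At 14 days it was 2.74 times the 1-day level (log2 fold 1.45, SE 0.12, adjusted p = 8.24e-06). Over sham the 14-day rise was small (log2 fold 0.44, SE 0.11, adjusted p = 0.0247), and it did not pass without sham mouse 1 (0.41, 0.101), sham mouse 2 (0.46, 0.0915), sham mouse 3 (0.44, 0.0752), library B (0.40, 0.109) or library C (0.44, 0.0837), or with total count only (0.54, 0.0765), log2 fold first and adjusted p second.

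Smoc2 encodes a matrix protein with domains shared with Sparc. It lies at chromosome 17, 14279506 to 14404790. Smoc2 had 50.1, 57.1 and 63.9 CPM at 14 days, 16.6, 16.7 and 18.4 CPM at 1 day, and 37.9, 30.2 and 29.5 CPM in sham. As for Sparcl1, the 1-day libraries were the lowest and the 14-day libraries the highest. Smoc2 fell to 0.529 times the sham level at 1 day (log2 fold -0.92, SE 0.12, adjusted p = 1.51e-04), a call that ended with total count only (-0.45, adjusted p = 0.0561). At 14 days it rose over sham (log2 fold 0.81, SE 0.12, adjusted p = 0.00337) and over 1 day (log2 fold 1.73, SE 0.12, adjusted p = 4.66e-06).

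Sparc and Sparcl1 counts were nearly equal in sham and diverged after I/R. The log2 ratio of Sparc over Sparcl1 counts was 1.28 ± 0.451 at 14 days, 1.83 ± 0.393 at 1 day and 0.0564 ± 0.191 in sham (SD, n = 3 per group). Every I/R library was above every sham library (two-sided exact permutation p = 0.1 for each time), while 14 days and 1 day overlapped (exact permutation p = 0.2). At 1 day Sparc had risen and Sparcl1 had fallen, and at 14 days both were above sham, Sparc by the larger fold.

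**Figure D4:**
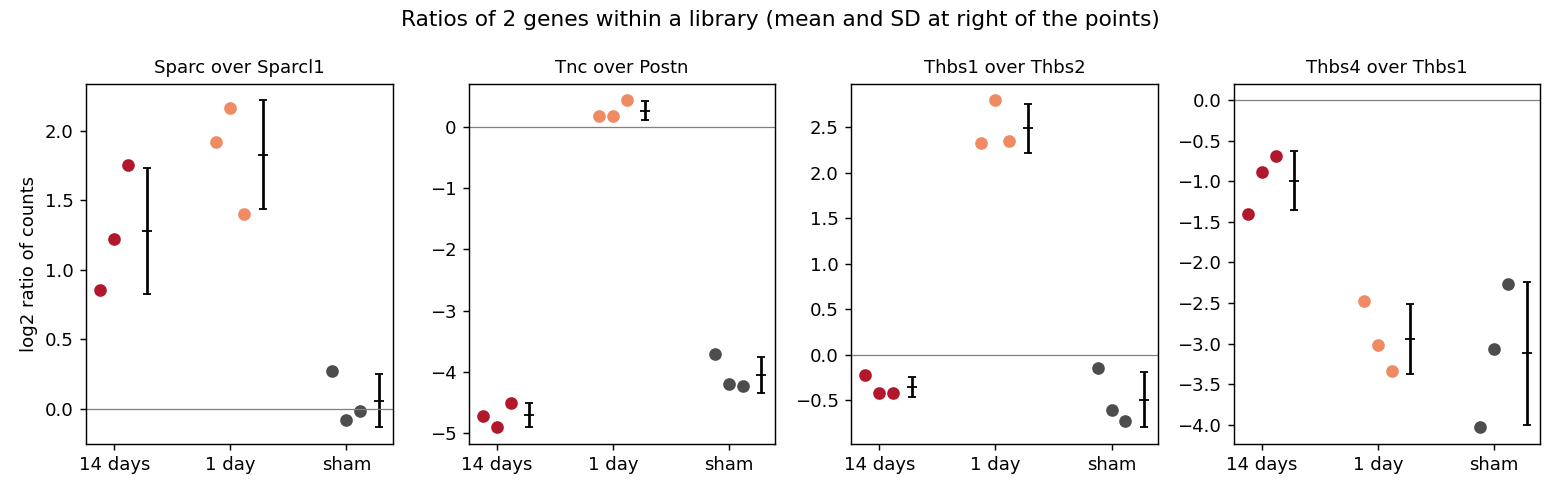
Log2 ratio of the counts of 2 members within a library for 4 gene pairs (vertical axes differ), with 14-day, 1-day and sham libraries from left to right and the mean and SD beside the points. The ratios of Tnc over Postn and Thbs1 over Thbs2 are highest at 1 day, and that of Thbs4 over Thbs1 is highest at 14 days.

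Levels between genes are compared per kilobase of exon. At 14 days the order of mean CPM per kilobase was Sparc (107.6), Postn (57.1), Sparcl1 (55.4), Thbs2 (8.84), Smoc2 (8.203), Thbs1 (7.88), Thbs4 (7.86), Cthrc1 (3.81), Tnc (2.53) and Thbs3 (1.88). Sparcl1 and Thbs2 were the only neighbours in that order whose ranges over libraries did not overlap. Within each of the 3 libraries, Sparc was also above Postn, Thbs4 above Cthrc1, Cthrc1 above Tnc and Tnc above Thbs3. At 1 day it was Sparc (55.9), Sparcl1 (20.2), Tnc (17.4), Postn (13.2), Thbs1 (10.8), Thbs4 (2.63), Smoc2 (2.48), Thbs2 (1.66), Thbs3 (0.675) and Cthrc1 (0.641). Libraries overlapped between Sparcl1 and Tnc, Tnc and Postn, Postn and Thbs1, Thbs4 and Smoc2, and Thbs3 and Cthrc1, though Tnc was above Postn in 3 of 3 libraries. In sham it was Sparcl1 (40.8), Sparc (33.0), Postn (5.06), Smoc2 (4.68), Thbs2 (2.35), Thbs1 (2.01), Thbs3 (0.589), Thbs4 (0.414), Tnc (0.371) and Cthrc1 (0.229). There the neighbours that overlapped were Postn and Smoc2, Thbs2 and Thbs1, Thbs3 and Thbs4, Thbs4 and Tnc, and Tnc and Cthrc1, though Tnc was above Cthrc1 in 3 of 3 libraries. Tnc thus ranked 9 of 10 at 14 days, 3 of 10 at 1 day and 9 of 10 in sham, all on the per-kilobase scale of levels.

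At 14 days the members also varied together among libraries, while at 1 day the highest library was mouse 4 for 4 members, mouse 5 for 3 and mouse 6 for 3. Of the 3 libraries at 14 days, A was the lowest for 10 of 10 members and C the highest for 9 of 10, the exception being Sparcl1. The highest 14-day library had between 1.09 times (Sparcl1) and 4.06 times (Tnc) the CPM of the lowest. Fibroblast markers (Pdgfra, Dcn, Lum, Tcf21, Col1a1, Dpt and Pi16) followed the same order, at 782.8, 1104 and 1657 CPM in A, B and C, and cardiomyocyte markers the opposite order, at 18267, 14973 and 13352 CPM. Macrophage markers (174.1, 269.6 and 332.8 CPM) and genes of TGF-beta and its activation (225.7, 278.4 and 355.7 CPM) also rose from A to C. Smooth muscle and pericyte markers fell (484.1, 471.4 and 400.8 CPM). The second principal component of log2 CPM ordered the libraries alike (-13.1, -35.3 and -49.1). The share of all genes in this order was not counted. Among sham mice, mouse 1 was highest for 8 of 10 members. Among 1-day mice, mouse 6 was lowest for 6 of 10 and highest for Thbs2, Sparcl1 and Smoc2. Whether the amount of scar or fibroblast tissue in a sample sets these differences was not tested.

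Gene neighbours were named by the smallest root mean square difference of centred log2 CPM over the 9 libraries, a description of these libraries that says nothing of function. The nearest to Postn were Col3a1 (0.37) and Frzb (0.45), and the nearest to Cthrc1 were Postn (0.61) and Lox (0.81). Tnc was nearest to Timp1 (0.33) and Sprr1a (0.58), and Thbs1 to Fn1 (0.21) and Clec4n (0.29). For Thbs2 they were Tc2n (0.16) and Mgp (0.19), for Thbs3 Fcrls (0.18) and Tenm3 (0.18), and for Thbs4 Col12a1 (0.39) and P4ha3 (0.49). Sparc was nearest to Bgn (0.11) and Mmp16 (0.13), Sparcl1 to Adamts5 (0.08) and Tmem140 (0.09), and Smoc2 to Plxdc2 (0.16) and Txndc16 (0.19). Only Cthrc1 had another member among its 2 nearest genes. For Thbs4 the nearest member was Postn, at place 4 of 12746 named genes, and for Smoc2 it was Sparcl1, at place 20. For the rest the nearest member stood at place 12 (Postn), 36 (Thbs3), 67 (Sparc and Sparcl1), 87 (Thbs2), 150 (Tnc) and 721 (Thbs1).

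Other matricellular and related genes, 12 tested of 16 listed were counted in the same fit. At 14 days against sham 6 rose and none of them fell (median log2 fold 1.13), at 1 day 6 rose and 2 fell (median 1.00), and at 14 days against 1 day 5 were higher and 5 lower (median -0.11). Over all genes tested 8.75% were higher and 5.64% lower at 14 days against sham, and 29.4% and 24.8% at 1 day against sham. At 14 days against 1 day 25.1% of all genes were higher and 26.8% lower. Comp, the fifth thrombospondin gene, had 23.3, 31.4 and 66.8 CPM at 14 days, 0.113, 0.119 and 0.0896 CPM at 1 day, and 0.419, 0.607 and 0.575 CPM in sham. Every 14-day library was far above the rest, and Comp rose over sham (log2 fold 6.23, SE 0.49, adjusted p = 0.00121) and over 1 day (log2 fold 8.47, SE 0.59). Spp1, which encodes osteopontin, had 1.63, 3.25 and 4.62 CPM at 14 days, 90.8, 111.4 and 91.7 CPM at 1 day, and 0.0837, 0.101 and 0.0639 CPM in sham. Spp1 was highest at 1 day and lower at 14 days than at 1 day (log2 fold -4.96, SE 0.27), but 18.8% of its exonic bases are shared with Gm42793 on the same strand, so its counts are uncertain.

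The CCN genes, which encode cysteine-rich matricellular growth regulators, also split. Ccn2 rose at 14 days (log2 fold 2.24, SE 0.36) and at 1 day (3.82, SE 0.38) over sham, and 23.2% of its exonic bases overlap Gm15270 on the other strand. Ccn4 rose at 1 day over sham (3.10, SE 0.43), and Ccn5 rose at 14 days over sham (3.83, SE 0.48) and over 1 day (2.67, SE 0.43). Neither Tnn nor Tnr, the other tenascin genes of the list besides Tnxb, passed the filter on low counts, with at most 0.409 and 0.318 CPM in a library. Tnc was the tenascin gene that rose, whereas Tnxb fell at 1 day (log2 fold -1.44, SE 0.30, adjusted p = 0.00317).

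Receptors and clearance genes of these proteins were counted beside the shares over all genes tested. Those shares were 8.75% higher and 5.64% lower at 14 days against sham, and 29.4% higher and 24.8% lower at 1 day against sham. At 14 days against 1 day they were 25.1% higher and 26.8% lower. Of 16, 5 rose and 1 fell at 14 days against sham (median log2 fold 0.28), 10 rose and 3 fell at 1 day against sham (median 0.68), and 5 were higher and 6 lower at 14 days against 1 day (median -0.21). Sdc1, a heparan sulfate receptor, rose at 14 days (1.24, SE 0.25) and at 1 day (1.62, SE 0.25), and the integrin genes Itga3 (1.64, SE 0.23) and Itgb3 (1.56, SE 0.27) rose at 1 day, all log2 folds over sham. Itga8, an integrin chain that pairs with beta 1, was higher at 14 days than at 1 day (1.49, SE 0.17), and 5.05% of its exonic bases overlap a gene on the other strand.

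Of 11 genes of TGF-beta and its activation, 7 rose and 1 fell at 14 days against sham (median log2 fold 0.82), 6 rose and 1 fell at 1 day against sham (median 0.59), and 4 were higher and 4 lower at 14 days against 1 day (median 0.23). The shares over all genes were 8.75% higher and 5.64% lower at 14 days against sham, and 29.4% and 24.8% at 1 day against sham. At 14 days against 1 day they were 25.1% higher and 26.8% lower. Tgfb2 rose at 1 day (log2 fold 3.29, SE 0.31) and Tgfb3 at 14 days (2.10, SE 0.22) over sham.

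Of 9 protease genes, 6 rose and 0 fell at 14 days against sham (median log2 fold 0.94), 6 rose and 2 fell at 1 day against sham (median 1.02), and 3 were higher and 4 lower at 14 days against 1 day (median -0.08). Beside these counts and those below, 8.75% of all genes were higher and 5.64% lower at 14 days against sham. It was 29.4% and 24.8% at 1 day against sham, and 25.1% and 26.8% at 14 days against 1 day. Mmp9 rose at 1 day over sham (4.81, SE 0.71), and Ctsk, a collagen-cutting cathepsin, rose at 14 days over sham (2.43, SE 0.31). Of 8 collagen, fibronectin and collagen maturation genes, 7 rose at 14 days and 5 at 1 day against sham (medians 2.01 and 1.198), with 2 higher and 1 lower at 14 days against 1 day (median 0.66). Col3a1 rose at 14 days (2.66, SE 0.42) and Fn1 at 1 day (2.16, SE 0.43) over sham.

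Genes of the Atf6 and endoplasmic reticulum stress list, Atf6 itself apart, were called at 1 day and not at 14 days against sham. Atf6 was called at neither time, with means of 91.6 CPM at 14 days, 82.5 CPM at 1 day and 99.2 CPM in sham. Over all genes tested 8.75% were called higher and 5.64% lower at 14 days against sham, so none of 7 is near those shares. At 1 day against sham 29.4% were called higher and 24.8% lower, and at 14 days against 1 day 25.1% and 26.8%. Of 7, none passed the test at 14 days against sham (median log2 fold -0.12), 6 rose at 1 day against sham (median 1.92) and 6 were lower at 14 days than at 1 day (median -2.13). The chaperone cofactor Sdf2l1 rose at 1 day over sham (3.59, SE 0.41), and the disulfide isomerase Pdia4 did so too (2.51, SE 0.27). Thbs4 itself was at its highest at 14 days. Of 10 transcription regulators of fibroblasts and tendon, 3 rose and 2 fell at 14 days against sham (median 0.38), 4 rose and 1 fell at 1 day against sham (median 0.39), and 3 were higher and 5 lower at 14 days against 1 day (median -0.39). Runx2 rose at 14 days (1.31, SE 0.33) and at 1 day (2.62, SE 0.31), and Meox1 at 14 days (1.75, SE 0.28), over sham.

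Markers of the cells that could carry these transcripts moved with the groups. Over all genes tested 8.75% were higher and 5.64% lower at 14 days against sham, and 29.4% and 24.8% at 1 day against sham. Of 7 fibroblast markers 6 rose at 14 days against sham and 4 fell and 1 rose at 1 day. The 7 fibroblast markers summed to between 782.8 and 1657 CPM at 14 days, 299.5 and 337.6 CPM at 1 day, and 359.6 and 447.8 CPM in sham. At 1 day over sham Pi16 (log2 fold -1.85, SE 0.38), Dpt (-1.24, SE 0.27), Dcn (-1.17, SE 0.25) and Tcf21 (-0.86, SE 0.28) fell and Pdgfra rose (0.87, SE 0.18), while Lum (-0.34, SE 0.28) and Col1a1 (0.86, SE 0.45) were not called. Of 6 activated fibroblast markers 5 rose and 1 fell at 14 days and 2 rose and 2 fell at 1 day, with sums between 161.1 and 321.2 CPM at 14 days, 110.8 and 151.8 CPM at 1 day, and 76.5 and 93.0 CPM in sham. Blood endothelial markers (5 genes) summed to between 308.8 and 392.7 CPM at 14 days, 280.3 and 286.1 CPM at 1 day, and 374.0 and 396.4 CPM in sham, and 2 fell at 1 day over sham.

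Smooth muscle and pericyte markers (5 genes) summed to between 400.8 and 484.1 CPM at 14 days, 163.5 and 275.7 CPM at 1 day, and 386.8 and 401.5 CPM in sham, and at 1 day 2 rose and 2 fell. Macrophage markers (5 genes) summed to between 174.1 and 332.8 CPM at 14 days, 176.4 and 197.3 CPM at 1 day, and 111.4 and 125.4 CPM in sham, with 5 higher at 14 days and 2 at 1 day over sham. Cartilage and tendon markers (Chad, Fmod, Tnmd, Scx and Acan) summed to between 8.66 and 23.0 CPM at 14 days, 2.24 and 3.44 CPM at 1 day, and 1.15 and 2.26 CPM in sham, and of 3 tested 2 rose at each time over sham. Markers of epicardium, fast skeletal muscle and Schwann cells summed to at most 9.12, 2.17 and 7.80 CPM in a library. These sums rest mostly on abundant genes, and single markers went different ways. The shares of all genes called higher were 8.75% at 14 days and 29.4% at 1 day against sham, and 24.8% were lower at 1 day. Rgs5 fell at 1 day over sham (log2 fold -1.02, SE 0.20) while Cnn1 (3.81, SE 0.49) and Tagln (0.77, SE 0.21) rose. Of the exonic bases of Tagln 67.9% overlap Pcsk7 and Gm48529 on the other strand, so its counts are uncertain. Fmod rose at 14 days over sham (4.54, SE 0.66), whereas Scx was lower at 14 days than at 1 day (-0.78, SE 0.22). Kdr fell at 1 day over sham (-1.24, SE 0.15), and Pecam1 was not called there (0.09, SE 0.11). The part of each cell type in the members' changes was not tested.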

How the data were processed

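RNA was isolated with TRIzol, and the libraries are stranded, rRNA-depleted total RNA, per the labels' protocols. Reads were processed with STAR 2.7.1a on GRCm38 (mm10), per the submitters' processing notes. The authors deposited raw counts per gene as whole numbers. How reads were assigned to genes (program, annotation, strand, multiple mapping) is not given in the sources used here, so overlapping genes are uncertain.

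Counts were tested in R 4.3.3 with edgeR 4.0.16: filterByExpr left 14124 genes, libraries were scaled by TMM, and a robust quasi-likelihood fit held all 9 libraries, with Benjamini-Hochberg adjustment over all genes tested and a threshold of 0.05. Log2 folds come from that fit, and SE is the log2 fold over the root of its F. Symbols, positions and exon lengths come from GENCODE M21, which held 36429 of 38293 IDs. Ratios used a pseudocount of 0.5, and log2 CPM a prior count of 2. The 17 alternatives were DESeq2 1.42.0, limma-voom (limma 3.58.1), total count only, upper-quartile scaling, no mitochondrially encoded genes in the scaling, no filter, 1 CPM in 3 libraries, the compared groups only, and each library left out. The fit was tested on simulated data. Replicate libraries differed beyond sampling noise, with chi-square values of 7.42 to 97.3 per degree of freedom, and the labels name them as separate mice. Figures used matplotlib 3.10.9. Promoter sequences are RefSeq's.

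Named genes are the 10 members, at most 3 called genes with the largest folds per other list and comparison, and the 2 nearest genes of each member. Members and lists were chosen with earlier results of these data known. Tnn, Tnr, Tnxb and Ccn2 at 14 days fall outside that rule and were named after their values were seen. A called gene of the TGF-beta list is not reported here by name.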

Additional observations from a re-analysis of the deposited data

Results flagged for a closer look

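For 9 of the 10 members the effect of I/R against sham differed between 14 days and 1 day, by the edgeR contrast of both times, which tests that difference itself. Over all genes tested that contrast called 25.1% higher and 26.8% lower. With total count only 5 members were called, without Postn, Thbs4, Sparc and Cthrc1. The log2 fold at 14 days minus that at 1 day was 2.11 for Postn, -2.79 for Tnc, 2.42 for Thbs2, 1.45 for Thbs3, 1.56 for Thbs4, 0.94 for Sparc, 1.45 for Sparcl1, 2.52 for Cthrc1 and 1.73 for Smoc2. For Sparcl1 and Smoc2 the effects had opposite signs, with a rise at 14 days and a fall at 1 day against sham. Tnc was the member with a negative difference. Both effects share the sham libraries.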

How the results depend on the processing

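Of 240 member folds under other settings 227 kept their call and direction, 12 lost the call and 1 gained it, and of 270 with 1 library left out 246 kept it, 20 lost it and 4 gained it. None of these folds turned direction. At 14 days against sham 832 genes were called with total count only, and between 478 (without sham mouse 2) and 3221 (without mouse 6) with 1 library left out, in place of 2033. Without sham mouse 1, sham mouse 3, library B or library C it was 912, 1025, 722 or 775. Members called lower at 1 day against sham were 1 with total count only, in place of 2. Members called at 14 days against 1 day were 4 higher with total count only, in place of 8, and between 1 and 2 lower with 1 library left out, 2 being without library C. In shares of raw counts, not per kilobase, the difference for Thbs2 was -7.64 percentage points at 14 days against sham, -37.4 at 1 day against sham and 29.8 at 14 days against 1 day, in place of -10.4, -33.6 and 23.2. For Thbs3 it was -2.63 at 14 days and -5.09 at 1 day against sham, in place of -4.13 and -6.83, and for Thbs4 12.7 at 14 days against sham and 7.36 at 14 days against 1 day, in place of 20.4 and 11.9. These shares move because exon lengths differ. The log2 ratio of Thbs4 over Thbs1 at 1 day minus sham, 0.176, ran from -0.279 (without sham mouse 1) to 0.603 (without sham mouse 3) and was -0.0578 without mouse 4. Low counts limit Cthrc1 in sham. No paired analysis was possible because the groups share no replicate numbers.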
